A study of Sus scrofa with 18 samples.

Results

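The circular muscle (CM), the inner muscle layer of the pig uterus, was compared between pregnant gilts on day 15 (GD15M_CM) and cyclic gilts on day 15 (CD15M_CM). The comparison holds 6 of the 18 libraries of the series, 3 for each state, each from its own gilt. Genes at 1 TPM (transcript abundance scaled to the library total, corrected for gene length) or more in at least 3 of these 6 libraries were kept, which left 14441 of 24358 genes. All animals were Yorkshire gilts. The pregnant gilts were naturally mated, and conceptuses had been found when their uteri were flushed, and the cyclic gilts were sampled on the same day of the estrous cycle. The muscle was taken at the mesometrial side, after the endometrium had been taken off with blades and the layers had been parted. GD12M_CM, the same layer on day 12 of pregnancy, and the longitudinal layer (LM) of the same day 15 gilts were used beside it. The series holds no cyclic gilts of day 12, so values of GD12M_CM are set beside the others without a state of their own to compare with.

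On day 15 the pig conceptus has elongated and begins to attach to the uterine surface, and its trophectoderm secretes interferon gamma together with interferon delta. Interferon gamma acts through IRF1 on genes of antigen presentation, whereas type I interferons act mainly on antiviral genes. The CM lies next to the endometrium and narrows the uterine lumen when it contracts, and its contraction is set by calcium entry, myosin light chain phosphorylation and receptors for prostaglandins, oxytocin, catecholamines and acetylcholine.

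The samples matched their label as smooth muscle and were not free of other tissue. DES, the muscle intermediate filament desmin, was at 4865, 2811 and 4041 TPM in GD15M_CM, against 3226, 4403 and 2897 TPM in CD15M_CM (replicates 1, 2 and 3 in this order, as throughout). MYH11, ACTA2 and CNN1 were at 988 TPM or more in each of these libraries. Markers of the luminal and glandular epithelium summed to 3943, 3522 and 1902 TPM in GD15M_CM, against 3288, 2288 and 4184 TPM in CD15M_CM. The epithelial keratin KRT18, EPCAM and CDH1 were detected in all 6 libraries, so the samples held epithelial RNA. Whether it came from endometrium left on the muscle was not tested. ELF5, a defining marker of conceptus trophectoderm, was at 0.108, 0.399 and 0.184 TPM in GD15M_CM, against 0.0894, 0.117 and 0.177 TPM in CD15M_CM, which is below the filter. In bulk tissue, fewer cells of a type and less RNA per cell cannot be told apart.

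Each library summed to 1000000 TPM, read depth is unknown from TPM, and the libraries had 16731 to 17746 genes above 0. Libraries correlated within CD15M_CM at 0.960 to 0.967 and within GD15M_CM at 0.937 to 0.944, and between the groups at 0.914 to 0.949 (Pearson's r of log2(TPM + 1) across genes, which are not independent replicates). GD15M_CM replicate 1 correlated more with each cyclic library (0.947 to 0.949) than with the other pregnant libraries (0.939 and 0.944). Along the first principal component (34.7% of the variance) the pregnant libraries lay at -49.7 to -7.70 and the cyclic libraries at 26.1 to 37.3. GD15M_CM replicate 3 stood apart in interferon genes, and each count of those genes is also given without it. In LM, CD15M_LM replicate 3 stood apart, with MYH11 at 193 TPM and 13.4% of its TPM in ribosomal protein genes, so LM values are also given without it.

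The threshold was a limma p, adjusted by Benjamini-Hochberg, below 0.05 together with an absolute log2 fold change above 1. Of the 14441 genes, 1 passed as higher in GD15M_CM (0.00692%) and 0 passed as lower. At an unadjusted limma p below 0.05 there were 842 higher genes (5.83%) and 1087 lower genes (7.53%). The gene that passed was FAM167B, and every other gene below is given by its values and did not pass in the comparison of these 6 libraries. For these genes a second measure was used, chosen after the data were seen. Groups were called apart when every pregnant library lay above, or every one lay below, all cyclic libraries, with an absolute log2 fold change above 1. By this measure 282 genes were higher (1.95%) and 265 were lower (1.84%) in GD15M_CM, and without GD15M_CM replicate 3 they were 285 (2.0%) and 306 (2.15%). The median log2 fold change of all genes was -0.05, with 6371 genes above 0 and 8070 below. Lists of genes by function were described by the count of members apart and by their median, beside these values of all genes. A gene low in cyclic tissue could pass the filter on pregnant libraries alone, and its sign was then fixed by the filter. This held for 39 of the genes kept, 20 of them among the 282, and 30 passed through cyclic libraries alone, 10 of them among the 265. Counts of members that were positive or apart, and their medians, are therefore a description.

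FAM167B encodes a little-studied protein of the FAM167 family (ENSSSCG00000003616, chromosome 6, 88715710 to 88717272, Sscrofa11.1). It was at 414, 228 and 239 TPM in GD15M_CM, against 13.2, 21.9 and 22.8 TPM in CD15M_CM. The lowest pregnant library was far above the highest cyclic library, and the pregnant libraries were led by replicate 1. The means were 294 ± 104 TPM in GD15M_CM and 19.3 ± 5.31 TPM in CD15M_CM (SD, n = 3 each), and FAM167B rose by a log2 fold change of 3.84 ± 0.30 (SE) with an adjusted p of 0.0282 in limma. On day 12 of pregnancy FAM167B was at 42.8, 45.9 and 78.8 TPM in GD12M_CM, between the other groups and overlapping neither. In LM of the same gilts it was at 326, 253 and 211 TPM in pregnant and 34.2, 35.1 and 29.5 TPM in cyclic gilts, again without overlap. The LM log2 fold change was 2.94 ± 0.27 with an adjusted p of 0.0501, just short of the threshold, and without CD15M_LM replicate 3 it was 2.87 with an adjusted p of 0.00721 (limma). The difference between the effects in CM and LM was 0.90 ± 0.34 with an adjusted p of 0.685 (limma interaction with the gilt as a block), and 1.11 with an adjusted p of 0.184 without the third cyclic gilt.

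**Figure D1:**
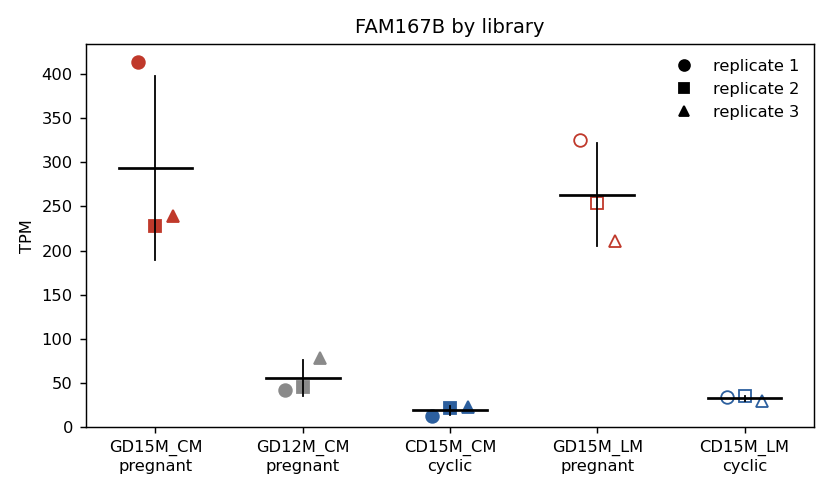
TPM of FAM167B in each library of GD15M_CM, GD12M_CM, CD15M_CM, GD15M_LM and CD15M_LM (y axis, TPM), with points for replicates, a line for the mean and a bar for the SD of 3. The pregnant day 15 libraries of both layers sit at 211 to 414 TPM, above all 6 cyclic libraries, which sit at 13.2 to 35.1 TPM.

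The call of FAM167B rests on few libraries. It kept a log2 fold change of 3.57 to 3.99 in 17 alternative settings and passed in 10 of them, with adjusted p values of 0.0072 to 0.198 in limma. It did not pass when any of the 3 pregnant libraries, or CD15M_CM replicate 2 or 3, was left out.

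Genes beside FAM167B were looked at because LCK, the T cell kinase, lies 2614 bp away in RefSeq. LCK is the nearest of the 12 neighbours that could be matched by symbol. LCK was at 1.64, 7.53 and 12.4 TPM in GD15M_CM, against 1.17, 1.15 and 1.29 TPM in CD15M_CM, a log2 fold change of 1.61 ± 0.56. The groups were apart, but GD15M_CM replicate 1, the highest in FAM167B, was the lowest of the pregnant libraries in LCK. HDAC1, a histone deacetylase 32339 bp away, was at 111, 108 and 111 TPM in GD15M_CM, against 65.7, 54.3 and 61.5 TPM in CD15M_CM (log2 fold change 0.85 ± 0.14). The groups of HDAC1 did not overlap, and its adjusted p in limma was 0.12. Within 100 kb RefSeq lists 14 genes besides FAM167B, of which 11 were measured here. The other 9 measured genes had log2 fold changes of -0.53 ± 0.46 (MARCKSL1) to 0.24 ± 0.31 (TMEM234), with 0.22 for EIF3I, a translation initiation factor subunit, and -0.26 for KPNA6, an importin. Which strand the counting used is not given in the sources used here, so reads of overlapping neighbours could not be told apart.

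The next genes in order of p were SMIM32, VSTM2A and GOLGA7B on the higher side. Picking genes by p in these libraries favours groups that do not overlap, so that separation is a description. Values in parentheses are the log2 fold change of GD15M_CM over CD15M_CM ± its SE, from limma with 3 libraries a group. SMIM32, a small integral membrane protein, was at 20.98, 66.7 and 61.8 TPM in GD15M_CM, against 0.891, 0 and 0.441 TPM in CD15M_CM. Its log2 fold change was 5.02 ± 0.47. SMIM32 was below 1 TPM in all cyclic libraries and passed the filter through the pregnant libraries alone, so its direction was fixed by the filter. It was at 1.02, 4.0 and 0.513 TPM in GD12M_CM and at 0, 2.25 and 0.700 TPM in GD15M_LM. VSTM2A, a secreted protein with an immunoglobulin domain, was at 28.99, 43.5 and 31.9 TPM in GD15M_CM, against 6.23, 8.0 and 8.71 TPM in CD15M_CM (2.04 ± 0.23). The lowest pregnant library was above the highest cyclic library more than 3-fold. GOLGA7B, a partner of palmitoyltransferases, was at 12.8, 16.8 and 11.02 TPM in GD15M_CM, against 2.01, 1.73 and 0.825 TPM in CD15M_CM (2.54 ± 0.30). ZDHHC14, itself a palmitoyltransferase, was at 60.01, 61.5 and 69.6 TPM in GD15M_CM, against 24.7, 29.3 and 20.2 TPM in CD15M_CM (1.34 ± 0.19). Neither gene had overlapping groups.

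Calcium and signaling genes were also among the 10 higher genes of smallest p. ANO1, a calcium-activated chloride channel that depolarizes smooth muscle, was at 58.1, 64.1 and 45.9 TPM in GD15M_CM, against 19.4, 22.2 and 17.3 TPM in CD15M_CM (1.46 ± 0.19, adjusted p 0.0736 in limma). RCVRN, the calcium sensor recoverin known from retinal photoreceptors, was at 10.2, 17.6 and 11.12 TPM in GD15M_CM, against 2.73, 2.01 and 1.93 TPM in CD15M_CM (2.08 ± 0.28). The groups of both genes were apart, and in LM the log2 fold change of ANO1 was 0.01, or -0.86 without CD15M_LM replicate 3. The effect on ANO1 in CM minus that in LM was 1.45 ± 0.66 with an adjusted p of 0.739, and 2.24 with an adjusted p of 0.0418 without the third cyclic gilt (limma interaction). NPPB, brain natriuretic peptide, a hormone that relaxes smooth muscle through cyclic GMP, was at 23.6, 22.8 and 14.1 TPM in GD15M_CM, against 0.129, 2.40 and 2.04 TPM in CD15M_CM (3.19 ± 0.46). NPPB was also high on day 12, at 19.5, 40.6 and 7.56 TPM in GD12M_CM. CLDN6, a tight junction claudin, was at 47.2, 29.2 and 17.4 TPM in GD15M_CM, against 2.42, 4.39 and 1.85 TPM in CD15M_CM (3.0 ± 0.40). INMT, which methylates tryptamine and other indoles, was at 36.2, 47.03 and 61.8 TPM in GD15M_CM, against 8.84, 1.87 and 4.84 TPM in CD15M_CM (3.14 ± 0.44). In neither gene did the groups overlap.

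**Figure D2:**
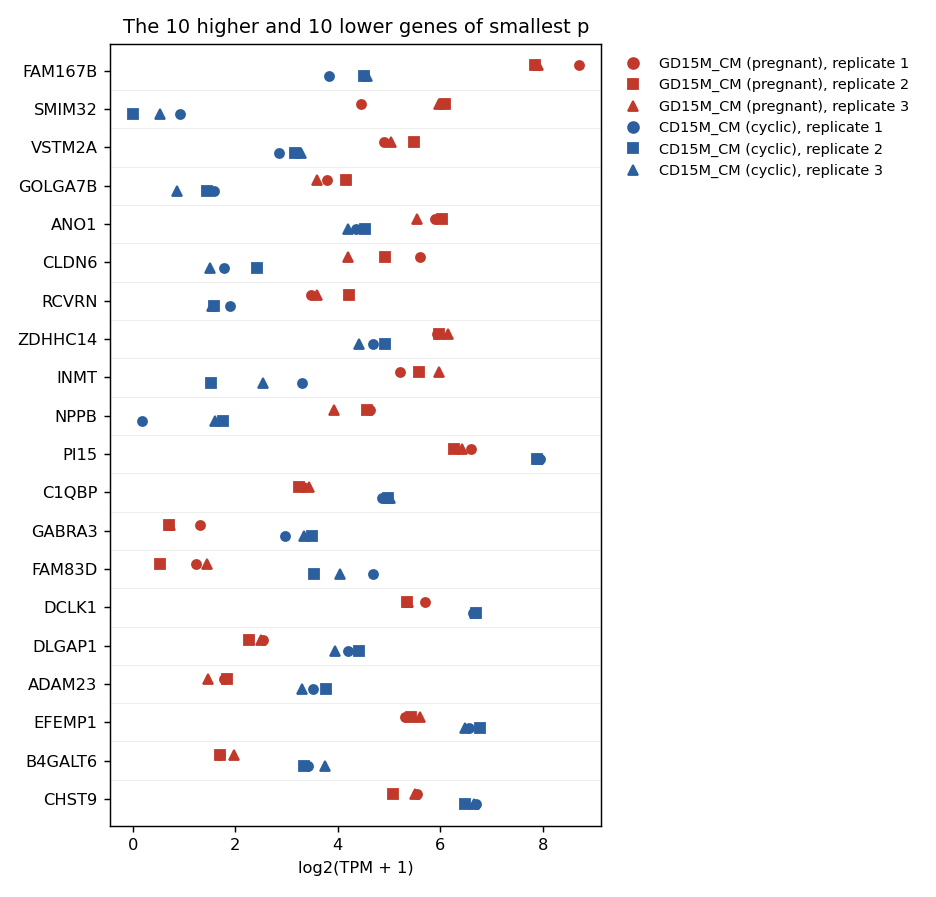
log2(TPM + 1) of the 10 genes with a symbol and the smallest p among those higher, and the 10 among those lower, in GD15M_CM than in CD15M_CM, with a point for each of the 6 libraries. The pregnant and cyclic points are separate in each of the 20 genes shown, which picking by p in these same libraries favours. FAM167B is the only gene shown that passed.

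The 10 lower genes of smallest p were led by PI15, a secreted protein of the CAP family. PI15 was at 95.6, 75.6 and 84.4 TPM in GD15M_CM, against 245, 234 and 237 TPM in CD15M_CM, a log2 fold change of -1.48 ± 0.15 with an adjusted p of 0.0547 in limma. The cyclic libraries differed by little, and the pregnant libraries were all below 100 TPM. C1QBP, a mitochondrial protein that also binds complement C1q, was at 9.0, 8.41 and 9.88 TPM in GD15M_CM, against 28.2, 30.5 and 31.3 TPM in CD15M_CM (-1.62 ± 0.18). EFEMP1, the matrix glycoprotein fibulin-3, was at 38.9, 41.8 and 47.8 TPM in GD15M_CM, against 92.97, 108 and 88.5 TPM in CD15M_CM (-1.15 ± 0.16). Their groups did not overlap.

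Other lower genes of this set act in sugar chains, neurons and mitosis. CHST9, a sulfotransferase of N-acetylgalactosamine, was at 45.4, 32.6 and 44.5 TPM in GD15M_CM, against 103, 88.1 and 99.95 TPM in CD15M_CM (-1.24 ± 0.18). B4GALT6, which makes lactosylceramide, was at 2.26, 2.28 and 2.95 TPM in GD15M_CM, against 9.74, 9.15 and 12.5 TPM in CD15M_CM (-1.71 ± 0.25). Both were lower in every pregnant library. GABRA3, a GABA receptor subunit, was at 1.48, 0.643 and 0.657 TPM in GD15M_CM, against 6.79, 10.2 and 9.16 TPM in CD15M_CM (-2.35 ± 0.30). DCLK1, a microtubule-associated kinase, was at 50.6, 39.6 and 40.2 TPM in GD15M_CM, against 98.5, 102 and 101 TPM in CD15M_CM (-1.20 ± 0.16). DLGAP1, a scaffold of the postsynaptic density, and ADAM23, a membrane protein that binds integrins, had log2 fold changes of -1.74 ± 0.23 and -1.83 ± 0.25. FAM83D, a mitotic spindle protein, was at 1.36, 0.447 and 1.74 TPM in GD15M_CM, against 24.9, 10.6 and 15.5 TPM in CD15M_CM (-3.02 ± 0.39), with all groups apart.

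Fitting all 9 CM libraries, so that the day 12 libraries added to the estimate of the spread, gave 23 genes that passed, 11 higher (0.0762%) and 12 lower (0.0831%). The higher genes with a symbol were FAM167B, SMIM32, CLDN6, KMO, HOXD3, CAMK1, TCEA2, RCVRN and GOLGA7B. The filter was the same as before, so the direction of SMIM32 was fixed by it here too, and its pass supports nothing. HOXD3, a homeobox transcription factor, was at 19.7, 32.3 and 18.9 TPM in GD15M_CM, against 6.62, 5.0 and 3.48 TPM in CD15M_CM (2.02 ± 0.30). CAMK1, a calmodulin-dependent kinase, was at 72.7, 57.1 and 66.5 TPM in GD15M_CM, against 29.9, 31.5 and 27.9 TPM in CD15M_CM (1.11 ± 0.16). Their groups were apart, with adjusted p values of 0.0293 and 0.0278 in the limma fit of 9 libraries. The lower genes with a symbol were CHST9, PKIA, PI15, FAM83D, EFEMP1, PDGFC, GABRA3, FBXO45 and C1QBP. PKIA, an inhibitor of protein kinase A, was at 18.9, 22.3 and 23.4 TPM in GD15M_CM, against 45.6, 42.7 and 51.7 TPM in CD15M_CM (-1.08 ± 0.17). PDGFC, a platelet-derived growth factor, was at 43.96, 37.3 and 55.5 TPM in GD15M_CM, against 94.03, 138 and 115 TPM in CD15M_CM (-1.33 ± 0.21). A lower gene without a symbol, ENSSSCG00000031709, was at 0, 3.14 and 3.86 TPM in GD15M_CM, against 85.2, 54.7 and 43.4 TPM in CD15M_CM, so its groups were far apart.

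Some other genes, named after their values were seen, were apart with a wider spread. GALNT9, which starts O-glycans, was at 331, 769 and 1002 TPM in GD15M_CM, against 14.3, 78.8 and 71.1 TPM in CD15M_CM (3.84 ± 0.67). CBR2, a carbonyl reductase, was at 1908, 994 and 1762 TPM in GD15M_CM, against 69.6, 425 and 545 TPM in CD15M_CM (2.56 ± 0.72). In both genes CD15M_CM replicate 1 was the lowest library, and no pregnant library reached down to the cyclic ones. CKM, muscle creatine kinase, was at 26.2, 5.89 and 15.9 TPM in GD15M_CM, against 126, 66.98 and 62.7 TPM in CD15M_CM (-2.48 ± 0.50). SLC38A1, a glutamine transporter, was at 97.9, 179 and 60.6 TPM in GD15M_CM, against 428, 381 and 553 TPM in CD15M_CM (-2.12 ± 0.37). SLC6A2, the noradrenaline transporter of sympathetic nerve endings, was at 2.51, 8.84 and 0.385 TPM in GD15M_CM, against 27.9, 16.9 and 16.6 TPM in CD15M_CM (-2.52 ± 0.65). These 3 genes were lower in every pregnant library.

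Regulators of the interferon gamma response summed to 728, 724 and 2373 TPM in GD15M_CM, against 562, 598 and 687 TPM in CD15M_CM, highest in GD15M_CM replicate 3, and 10 of 15 had a positive log2 fold change. IRF1, the transcription factor at the centre of this response, was at 153, 68.2 and 817 TPM in GD15M_CM, against 34.4, 31.7 and 49.1 TPM in CD15M_CM. The lowest pregnant library was above the highest cyclic library, and replicate 3 was more than 5-fold above the other pregnant libraries. The log2 fold change of IRF1 was 2.41 ± 0.79 with an adjusted p of 0.286 in limma. BATF2, a leucine zipper factor induced by interferon gamma, was at 15.5, 6.37 and 122 TPM in GD15M_CM, against 3.72, 0.669 and 2.45 TPM in CD15M_CM (3.04 ± 0.96), and its groups were apart. SOCS1, the feedback inhibitor of the pathway, was at 36.3, 33.5 and 161 TPM in GD15M_CM, against 18.5, 15.7 and 28.6 TPM in CD15M_CM (1.48 ± 0.58). Of 15 measured regulators, 5 were apart and higher and 0 were lower, against 1.95% and 1.84% of all genes, and 2 were higher without GD15M_CM replicate 3. The median of the regulators was 0.60, or 0.34 without that library, and the receptor genes IFNGR1 and IFNGR2 had log2 fold changes of -0.31 and -0.11. IFNG itself was below the filter, at 0.767, 0.273 and 0.636 TPM in GD15M_CM, against 0, 0 and 0.0323 TPM in CD15M_CM.

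Effectors of the response followed the same order of libraries. GBP1, a guanylate-binding protein of host defence, was at 47.9, 13.8 and 659 TPM in GD15M_CM, against 8.15, 8.03 and 12.5 TPM in CD15M_CM (2.91 ± 1.19). GD15M_CM replicate 2 was close to the cyclic libraries and replicate 3 far above all others, yet the groups were apart. WARS1, the tryptophanyl-tRNA synthetase induced by interferon gamma, was at 115, 97.2 and 720.4 TPM in GD15M_CM, against 70.9, 59.5 and 69.6 TPM in CD15M_CM (1.58 ± 0.68). CD274, the T cell inhibitory ligand PD-L1, was at 4.12, 2.32 and 28.4 TPM in GD15M_CM, against 1.18, 2.09 and 2.49 TPM in CD15M_CM (1.47 ± 0.75), with overlap. Of 7 measured effectors 3 were apart and higher, against 1.95% of all genes, and 2 without replicate 3. Their median was 1.47, and 0.66 without that library.

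MHC class I presentation showed the most members apart of the lists examined. PSMB9, a catalytic subunit of the immunoproteasome, was at 118, 56.2 and 562 TPM in GD15M_CM, against 22.6, 18.7 and 28.5 TPM in CD15M_CM (2.71 ± 0.73, adjusted p 0.248 in limma). TAP1, a peptide transporter subunit, was at 151, 72.1 and 549 TPM in GD15M_CM, against 46.5, 39.5 and 53.2 TPM in CD15M_CM (1.96 ± 0.64). NLRC5, the transactivator of class I genes, was at 20.5, 16.7 and 102 TPM in GD15M_CM, against 5.20, 4.65 and 8.16 TPM in CD15M_CM (2.31 ± 0.63). In these genes the lowest pregnant library was GD15M_CM replicate 2, still above every cyclic library. Of 12 measured members 12 had a positive log2 fold change, and 10 of 11 without replicate 3. Of them 6 were apart and higher, against 1.95% of all genes, and 4 without that library. The median was 1.16, and 0.82 without it. The class I heavy chain genes and B2M were not analysed here.

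MHC class II genes are expressed mainly by antigen-presenting cells and are induced in other cells through CIITA. CIITA was at 21.1, 18.1 and 115 TPM in GD15M_CM, against 10.02, 10.8 and 10.04 TPM in CD15M_CM (1.70 ± 0.63). SLA-DMB, a chain of the peptide-loading molecule, was at 96.1, 84.7 and 469 TPM in GD15M_CM, against 42.8, 47.3 and 80.6 TPM in CD15M_CM (1.5 ± 0.62). Neither gene had overlapping groups, although GD15M_CM replicate 2 was only just above CD15M_CM replicate 3 in SLA-DMB. CD74, the invariant chain, was at 304, 361 and 958 TPM in GD15M_CM, against 221, 217 and 332 TPM in CD15M_CM (0.91 ± 0.42), with overlap. Of 9 measured members 9 were positive, 8 without GD15M_CM replicate 3, with a median of 1.05. Of them 4 were apart and higher, against 1.95% of all genes, and 0 without that library, when the median was 0.50.

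**Figure D3:**
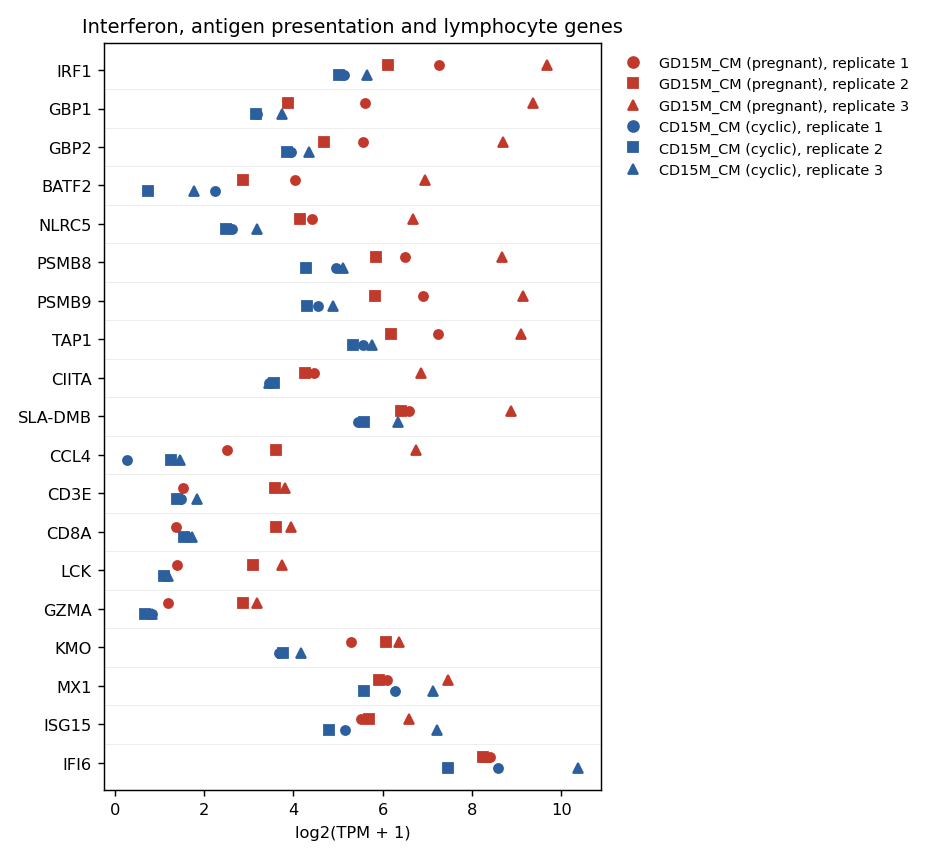
log2(TPM + 1) of genes of the interferon response, antigen presentation, lymphocytes and the kynurenine pathway in each library of GD15M_CM and CD15M_CM. GD15M_CM replicate 3 is the highest point in IRF1, GBP1, NLRC5, PSMB9, TAP1 and CIITA, at 817 TPM for IRF1, whereas the groups overlap in MX1, ISG15 and IFI6.

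Type I interferon response genes were not apart between the states. IFI6, a mitochondrial antiviral protein, was at 337, 304 and 319 TPM in GD15M_CM, against 382, 175 and 1338 TPM in CD15M_CM (-0.48 ± 0.64). ISG15, a ubiquitin-like modifier, was at 44.8, 50.5 and 95.9 TPM in GD15M_CM, against 34.8, 27.1 and 148 TPM in CD15M_CM (0.20 ± 0.61). MX1, a dynamin-like antiviral GTPase, was at 67.7, 59.6 and 175 TPM in GD15M_CM, against 76.02, 46.7 and 139 TPM in CD15M_CM (0.17 ± 0.50). CD15M_CM replicate 3 was the highest library in IFI6 and ISG15, and the groups of all 3 genes overlapped. Of 29 measured members 25 were positive, and 8 of 28 without GD15M_CM replicate 3. Of them 0 were apart in either direction, against 1.95% of all genes higher and 1.84% lower. The median was 0.28, and -0.15 without that library.

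Several chemokines that attract lymphocytes were highest in GD15M_CM replicate 3. CCL4, which attracts T cells and monocytes, was at 4.75, 11.2 and 106 TPM in GD15M_CM, against 0.210, 1.40 and 1.75 TPM in CD15M_CM (3.29 ± 0.98), with no overlap. CCL5 was at 12.6, 86.2 and 129 TPM in GD15M_CM, against 11.7, 20.4 and 15.7 TPM in CD15M_CM (1.70 ± 0.76). CXCL10, an interferon-induced ligand of CXCR3, was at 45.5, 6.68 and 269.8 TPM in GD15M_CM, against 9.03, 2.64 and 16.3 TPM in CD15M_CM (2.42 ± 1.19). CCL5 and CXCL10 overlapped, each through 1 pregnant library within the cyclic range. CCL28, an epithelial chemokine, was at 288, 138 and 23.9 TPM in GD15M_CM, against 601, 166 and 299 TPM in CD15M_CM (-1.64 ± 0.87). Of 24 measured members 1 was apart and higher and 0 were lower, against 1.95% and 1.84% of all genes, and the median was 0.18. Without GD15M_CM replicate 3 the median was 0.04, with 11 of 22 members positive.

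Markers of T cells and of cytotoxic cells had their highest sums in GD15M_CM replicates 2 and 3. CD3E, a chain of the T cell receptor complex, was at 1.91, 11.02 and 13.1 TPM in GD15M_CM, against 1.79, 1.63 and 2.57 TPM in CD15M_CM (1.41 ± 0.58). CD8A, the coreceptor of cytotoxic T cells, was at 1.59, 11.2 and 14.4 TPM in GD15M_CM, against 2.12, 1.96 and 2.33 TPM in CD15M_CM (1.33 ± 0.63). In both genes GD15M_CM replicate 1 was within or near the cyclic range and replicates 2 and 3 were above it. GZMA, the protease granzyme A, was at 1.28, 6.28 and 8.17 TPM in GD15M_CM, against 0.795, 0.607 and 0.788 TPM in CD15M_CM (1.63 ± 0.52). GNLY, the membrane-lysing protein granulysin, was at 10.7, 16.95 and 42.2 TPM in GD15M_CM, against 4.21, 2.77 and 10.3 TPM in CD15M_CM (1.78 ± 0.56). The groups of GZMA and GNLY were apart, GNLY only narrowly. T cell markers summed to 28.2, 90.5 and 147 TPM in GD15M_CM, against 25.9, 24.8 and 40.7 TPM in CD15M_CM. Cytotoxic and natural killer markers summed to 50.1, 154 and 225 TPM in GD15M_CM, against 37.02, 32.8 and 58.2 TPM in CD15M_CM. Of 9 T cell markers 2 were apart and higher, against 1.95% of all genes, and 1 without GD15M_CM replicate 3. Their median was 1.06, and 0.71 over 8 markers without that library. Of 14 cytotoxic markers 4 were apart and higher, against the same share of all genes, and 2 without that library. GZMA was below 1 TPM in all cyclic libraries, so its direction was fixed by the filter. The median of the cytotoxic markers was 1.24, and 0.81 over 11 markers without it, since fewer markers then passed the filter. Of these markers 7, and 3 of the T cell markers, needed pregnant libraries to reach the filter, so both counts and medians lean upward. The part of these cells in the antigen presentation genes was not tested.

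Macrophage, B cell and complement genes were mostly positive, with few members apart. CD79A, a B cell receptor chain, was at 2.70, 5.73 and 12.5 TPM in GD15M_CM, against 1.99, 1.08 and 1.49 TPM in CD15M_CM (1.48 ± 0.47), and JCHAIN, of antibody-secreting cells, was at 78.3, 159 and 163 TPM in GD15M_CM, against 96.4, 55.8 and 204 TPM in CD15M_CM (0.29 ± 0.48). Only the groups of CD79A were apart. Macrophage and dendritic cell markers had a median of 0.46 over 17 members (0.31 over 16 without GD15M_CM replicate 3). Of the 17, 12 were positive, 2 were apart and higher and 0 were lower, against 1.95% and 1.84% of all genes. Without GD15M_CM replicate 3, 9 were positive and 1 was apart and higher. CD163, a scavenger receptor of resident macrophages, was among the negative ones, with a log2 fold change of -0.65 ± 0.51. B cell and plasma cell markers had a median of 0.46 over 10 (0.19 without that library), with 8 positive. C3, the central complement protein, was at 59.9, 229 and 187 TPM in GD15M_CM, against 51.3, 62.7 and 59.6 TPM in CD15M_CM (1.24 ± 0.46). C4A was at 161, 279 and 608 TPM in GD15M_CM, against 135, 159.8 and 89.8 TPM in CD15M_CM (1.27 ± 0.46). The groups of C4A were narrowly apart, and those of C3 overlapped through GD15M_CM replicate 1. Of 14 complement genes 13 were positive, or 12 without GD15M_CM replicate 3. Of them 2 were apart and higher, against 1.95% of all genes, and 0 without that library.

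Tryptophan is broken down along the kynurenine pathway, which IDO1 opens in many tissues and in which KMO hydroxylates kynurenine. KMO was at 38.5, 66.5 and 81.04 TPM in GD15M_CM, against 11.7, 12.7 and 17.1 TPM in CD15M_CM, a log2 fold change of 2.04 ± 0.30 with an adjusted p of 0.0791 in limma. The pregnant libraries were all more than 2-fold above the highest cyclic library. KMO was at 5.44, 4.64 and 3.53 TPM in GD12M_CM, below both day 15 groups, and passed in the limma fit of 9 libraries with an adjusted p of 0.0386. In LM it was at 2.98, 7.10 and 7.12 TPM in pregnant and 5.11, 6.27 and 6.89 TPM in cyclic gilts, with overlap. The effect in CM exceeded that in LM by 2.18 ± 0.27, with an adjusted p of 0.0677 for the difference, and of 0.0213 without the third cyclic gilt (limma interaction). IDO1 was below the filter, at 3.45, 0.311 and 22.7 TPM in GD15M_CM, against 0.233, 0.274 and 0.230 TPM in CD15M_CM. KMO was the only gene apart past a 2-fold difference among the 9 measured members of the pathway, against 1.95% of all genes higher.

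Contraction signaling genes lay mostly below 0 in log2 fold change. RGS5, which turns off G protein signaling in vascular and other smooth muscle, was at 132, 144 and 401 TPM in GD15M_CM, against 513, 814 and 673 TPM in CD15M_CM (-1.73 ± 0.42). RGS4, of the same family, was at 25.1, 32.5 and 36.6 TPM in GD15M_CM, against 100.2, 87.6 and 59.2 TPM in CD15M_CM (-1.35 ± 0.24). PPP1R12A, the targeting subunit of myosin light chain phosphatase, was at 40.2, 83.8 and 96.4 TPM in GD15M_CM, against 134, 179 and 129.96 TPM in CD15M_CM (-1.07 ± 0.33). The groups of all 3 genes were apart. PDE5A, which breaks down cyclic GMP, was at 29.4, 28.99 and 29.3 TPM in GD15M_CM, against 60.3, 56.8 and 46.3 TPM in CD15M_CM (-0.87 ± 0.16), with nearly equal pregnant libraries. Of 26 measured members 22 were negative, with a median of -0.46, and -0.55 without GD15M_CM replicate 3. Of them 3 were apart and lower, against 1.84% of all genes, and 0 were higher. At any size of the fold change 10 were lower, against 12.0% of all genes.

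The contractile apparatus held members that were apart and members that overlapped. MYH11, the myosin heavy chain of smooth muscle, was at 1127, 988 and 1615 TPM in GD15M_CM, against 2365, 3448 and 1777 TPM in CD15M_CM (-1.0 ± 0.31, adjusted p 0.272 in limma). PGM5, a protein of muscle adhesion sites, was at 346, 265 and 386 TPM in GD15M_CM, against 733, 1037 and 754 TPM in CD15M_CM (-1.34 ± 0.22). No pregnant library reached the lowest cyclic one in either gene, although MYH11 in GD15M_CM replicate 3 came close to it. ACTG2, enteric smooth muscle actin, was at 4891, 1469 and 2514 TPM in GD15M_CM, against 3050.4, 4539 and 2415 TPM in CD15M_CM (-0.30 ± 0.46), and its log2 fold change turned to 0.12 without GD15M_CM replicate 2. ACTA2, alpha smooth muscle actin, had a log2 fold change of -0.08 ± 0.35 and DES of 0.14 ± 0.31. Of 26 measured members 2 were apart and lower, against 1.84% of all genes, 3 without GD15M_CM replicate 3, and 0 were higher. Their median was -0.24, and -0.32 without that library. Contractile genes summed to 40038, 22713 and 35357 TPM in GD15M_CM, against 35906, 49114 and 32154 TPM in CD15M_CM, lowest in GD15M_CM replicate 2. TAGLN and MYL6, which are abundant in smooth muscle, were listed at 29.1 TPM or less in all 6 libraries, so their TPM is uncertain.

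Receptors that drive contraction included members on both sides. PTGER3, the EP3 receptor through which prostaglandin E2 contracts the uterus, was at 22.2, 17.3 and 40.4 TPM in GD15M_CM, against 88.1, 88.8 and 65.8 TPM in CD15M_CM (-1.64 ± 0.31, adjusted p 0.140 in limma). PTGFR, the receptor of prostaglandin F2 alpha, was at 22.2, 14.04 and 16.7 TPM in GD15M_CM, against 36.1, 37.98 and 35.7 TPM in CD15M_CM (-1.04 ± 0.21). OXTR, the oxytocin receptor, was at 1.07, 2.18 and 1.61 TPM in GD15M_CM, against 4.22, 2.82 and 4.32 TPM in CD15M_CM (-0.87 ± 0.30). EDNRA, the endothelin receptor of smooth muscle, was at 28.9, 34.98 and 20.98 TPM in GD15M_CM, against 79.1, 45.9 and 41.9 TPM in CD15M_CM (-0.92 ± 0.29). These 4 receptors were lower in every pregnant library. PTGIR, the relaxing prostacyclin receptor, was at 4.74, 5.16 and 5.95 TPM in GD15M_CM, against 1.84, 2.22 and 0.932 TPM in CD15M_CM (1.27 ± 0.29). ADRA1B, a contracting adrenoceptor, was at 20.8, 27.1 and 27.8 TPM in GD15M_CM, against 8.42, 10.7 and 12.2 TPM in CD15M_CM (1.20 ± 0.22). PTGIR and ADRA1B were higher in every pregnant library. ADRA2A, another adrenoceptor, was at 79.3, 123 and 124 TPM in GD15M_CM, against 342, 401 and 38.5 TPM in CD15M_CM (-0.71 ± 0.81), where CD15M_CM replicate 3 lay below all pregnant libraries. Of 24 measured receptors 2 were apart and higher and 2 lower, against 1.95% and 1.84% of all genes. The median was 0.08, or 0.17 without GD15M_CM replicate 3.

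Of 27 measured ion channels and gap junction genes, 19 had a negative log2 fold change, and ANO1, given above, had the highest. TRPC6, a cation channel opened by receptor signaling, was at 15.1, 23.6 and 28.4 TPM in GD15M_CM, against 59.9, 56.7 and 52.98 TPM in CD15M_CM (-1.34 ± 0.24). TRPC4, of the same family, was at 8.34, 8.46 and 7.81 TPM in GD15M_CM, against 14.9, 41.2 and 17.99 TPM in CD15M_CM (-1.34 ± 0.36). CACNB2, a subunit of voltage-gated calcium channels, was at 11.04, 13.04 and 11.03 TPM in GD15M_CM, against 23.3, 23.9 and 25.3 TPM in CD15M_CM (-0.99 ± 0.18). The groups of all 3 genes were apart in level, with CACNB2 just under a 2-fold difference. GJA1, the gap junction protein connexin 43, was at 636, 332 and 383 TPM in GD15M_CM, against 371, 355 and 413 TPM in CD15M_CM (0.19 ± 0.25), with overlap. Among these genes 1 was apart and higher and 2 were lower, against 1.95% and 1.84% of all genes, and the median was -0.18.

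**Figure D4:**
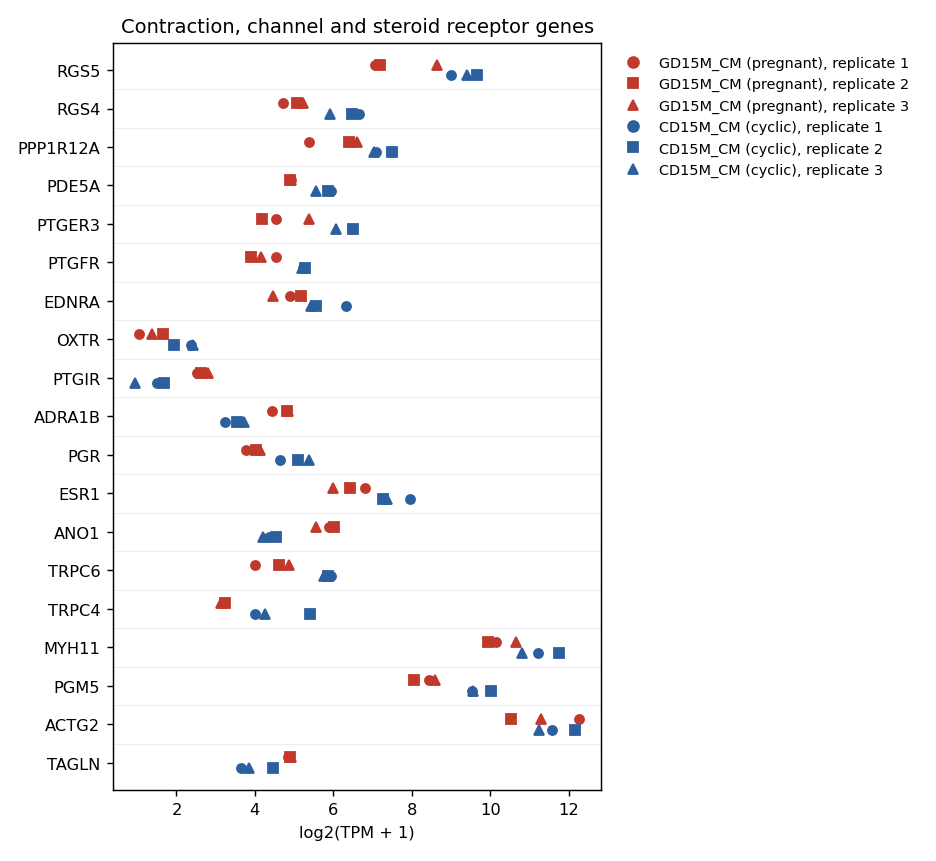
log2(TPM + 1) of contraction genes, receptors, channels and steroid receptors in each library of GD15M_CM and CD15M_CM. The cyclic points lie above the pregnant points in RGS5, RGS4, PTGER3, PTGFR, TRPC6 and ESR1, and below them in ANO1, PTGIR and ADRA1B, whereas the groups overlap in ACTG2.

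The receptors of progesterone and estrogen, PGR and ESR1, were each lower in every pregnant library. PGR, the progesterone receptor, was at 12.8, 15.3 and 16.6 TPM in GD15M_CM, against 23.9, 33.3 and 40.9 TPM in CD15M_CM (-1.06 ± 0.24, adjusted p 0.179 in limma). ESR1, estrogen receptor alpha, was at 111, 85.4 and 62.7 TPM in GD15M_CM, against 245, 154 and 164 TPM in CD15M_CM (-1.12 ± 0.26, adjusted p 0.194, limma). Neither gene overlapped between the groups. On day 12 ESR1 was at 189.8, 75.6 and 152 TPM in GD12M_CM and PGR at 34.3, 18.8 and 22.4 TPM. FKBP5, a chaperone induced by progesterone and glucocorticoid receptors, had a log2 fold change of -0.02 ± 0.17, and NR3C1, the glucocorticoid receptor, of -0.06 ± 0.20. The median of the 15 measured steroid receptors and coregulators was -0.27.

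The genes of prostaglandin synthesis and breakdown held few members apart. PTGES, prostaglandin E synthase, was at 148, 102 and 158 TPM in GD15M_CM, against 48.4, 102 and 54.3 TPM in CD15M_CM (1.04 ± 0.31). HPGD, which inactivates prostaglandins, was at 16.8, 19.2 and 15.8 TPM in GD15M_CM, against 37.6, 21.7 and 35.3 TPM in CD15M_CM (-0.80 ± 0.24). The groups of PTGES met at 102 TPM, and those of HPGD did not overlap. PTGES was the only one of 14 members apart past a 2-fold difference, against 1.95% of all genes higher. Without GD15M_CM replicate 3 the counts were 0 higher and 1 lower, against 2.0% and 2.15% of all genes.

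Wnt modulators and growth factors held further members apart. DKK1, a secreted Wnt inhibitor induced by progesterone in human endometrium, was at 527, 1091 and 750.3 TPM in GD15M_CM, against 112, 224 and 292 TPM in CD15M_CM (1.95 ± 0.39). SFRP2, another secreted modulator, was at 23.7, 20.4 and 20.5 TPM in GD15M_CM, against 54.6, 119 and 52.4 TPM in CD15M_CM (-1.66 ± 0.31). DKK1 was higher and SFRP2 lower in every pregnant library. Of 21 Wnt genes 16 were negative, with a median of -0.39, or -0.23 without GD15M_CM replicate 3. Among them 1 was apart and higher and 2 were lower, against 1.95% and 1.84% of all genes. TGFB3 was at 22.7, 13.6 and 20.6 TPM in GD15M_CM, against 49.6, 61.8 and 38.3 TPM in CD15M_CM (-1.35 ± 0.26), whereas TGFB1 was at 53.8, 71.3 and 68.8 TPM in GD15M_CM, against 33.4, 35.7 and 32.2 TPM in CD15M_CM (0.91 ± 0.17). The 2 transforming growth factors thus lay on opposite sides, each without overlap. Of 30 growth factors and receptors 0 were apart and higher and 3 were lower, against 1.95% and 1.84% of all genes. Without GD15M_CM replicate 3 the counts were 1 higher and 2 lower. IGF1, which drives muscle growth, was at 79.04, 65.6 and 82.8 TPM in GD15M_CM, against 104, 104 and 103 TPM in CD15M_CM (-0.46 ± 0.15), also without overlap. Of 14 genes of the IGF system 12 were negative and 0 were apart past a 2-fold difference. Their median was -0.44.

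Of 43 collagens and matrix proteins 28 were negative, and the median was -0.15. Of them 2 were apart and lower, against 1.84% of all genes, or 3 without GD15M_CM replicate 3, against 2.15%. THBS1, the matricellular protein thrombospondin 1, was at 27.6, 37.4 and 58.1 TPM in GD15M_CM, against 81.8, 118 and 98.6 TPM in CD15M_CM (-1.31 ± 0.28). COL12A1, a collagen that coats fibrils, was at 72.6, 112 and 131 TPM in GD15M_CM, against 293, 295 and 135 TPM in CD15M_CM (-1.15 ± 0.35). The groups of COL12A1 were apart only narrowly, through CD15M_CM replicate 3. COL1A1, the main fibrillar collagen, had a log2 fold change of -0.21 ± 0.46.

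Cholesterol and fatty acid synthesis had 19 of 23 members negative and a median of -0.39 (-0.26 without GD15M_CM replicate 3), and 0 were apart past a 2-fold difference. Nuclear genes of oxidative phosphorylation had 21 of 26 negative and a median of -0.24, and 11 were lower in every pregnant library, all by less than 2-fold, against 12.0% of all genes lower in every pregnant library at any size. Mitochondrially encoded genes had 12 of 13 positive and a median of 0.21, or 10 of 12 and 0.18 without GD15M_CM replicate 3. They summed to 79870, 44151 and 65201 TPM in GD15M_CM, against 42678, 53300 and 64931 TPM in CD15M_CM. These sums overlapped, and 0 members were apart past a 2-fold difference. In glycolysis, PFKP, the platelet-type phosphofructokinase, was at 22.3, 66.1 and 53.6 TPM in GD15M_CM, against 21.4, 21.8 and 17.9 TPM in CD15M_CM (1.04 ± 0.38). SLC16A3, a lactate exporter, was at 14.9, 15.2 and 19.6 TPM in GD15M_CM, against 9.51, 6.77 and 6.83 TPM in CD15M_CM (1.02 ± 0.23). These were the 2 glycolysis genes apart and higher, out of 24, against 1.95% of all genes, with 1 left without GD15M_CM replicate 3. The median was -0.05, or -0.11 without that library. MT1X, a metallothionein that binds zinc, was at 4758, 3986 and 4788 TPM in GD15M_CM, against 2863, 2247 and 2389 TPM in CD15M_CM (0.85 ± 0.24), with no overlap.

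Markers of the endometrium and of blood give the makeup of the samples. The 15 epithelial markers had a median of -0.08 with 6 positive and 0 apart, and without GD15M_CM replicate 3 a median of 0.23 with 13 positive. The 14 ciliated cell markers had a median of -0.02, and 0.17 without that library. Genes secreted by endometrial glands had a median of 0.60 over 13 members. SPP1, osteopontin, a protein of the uterine lumen at attachment, was at 34.6, 83.1 and 158 TPM in GD15M_CM, against 7.71, 14.8 and 9.28 TPM in CD15M_CM (2.80 ± 0.51). SPP1 was the only one of these 13 genes apart past a 2-fold difference, against 1.95% of all genes higher. HBB, a globin chain of red blood cells, was at 137, 138 and 61.9 TPM in GD15M_CM, against 322, 368 and 1200.1 TPM in CD15M_CM (-2.30 ± 0.53). Red blood cell markers summed to 143, 145 and 63.3 TPM in GD15M_CM, against 329.9, 379 and 1219.8 TPM in CD15M_CM, so each cyclic library held more globin RNA than any pregnant one. Stromal and vascular endothelial markers had medians of -0.04 and 0.10, or -0.10 and 0.16 without GD15M_CM replicate 3.

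**Figure D5:**
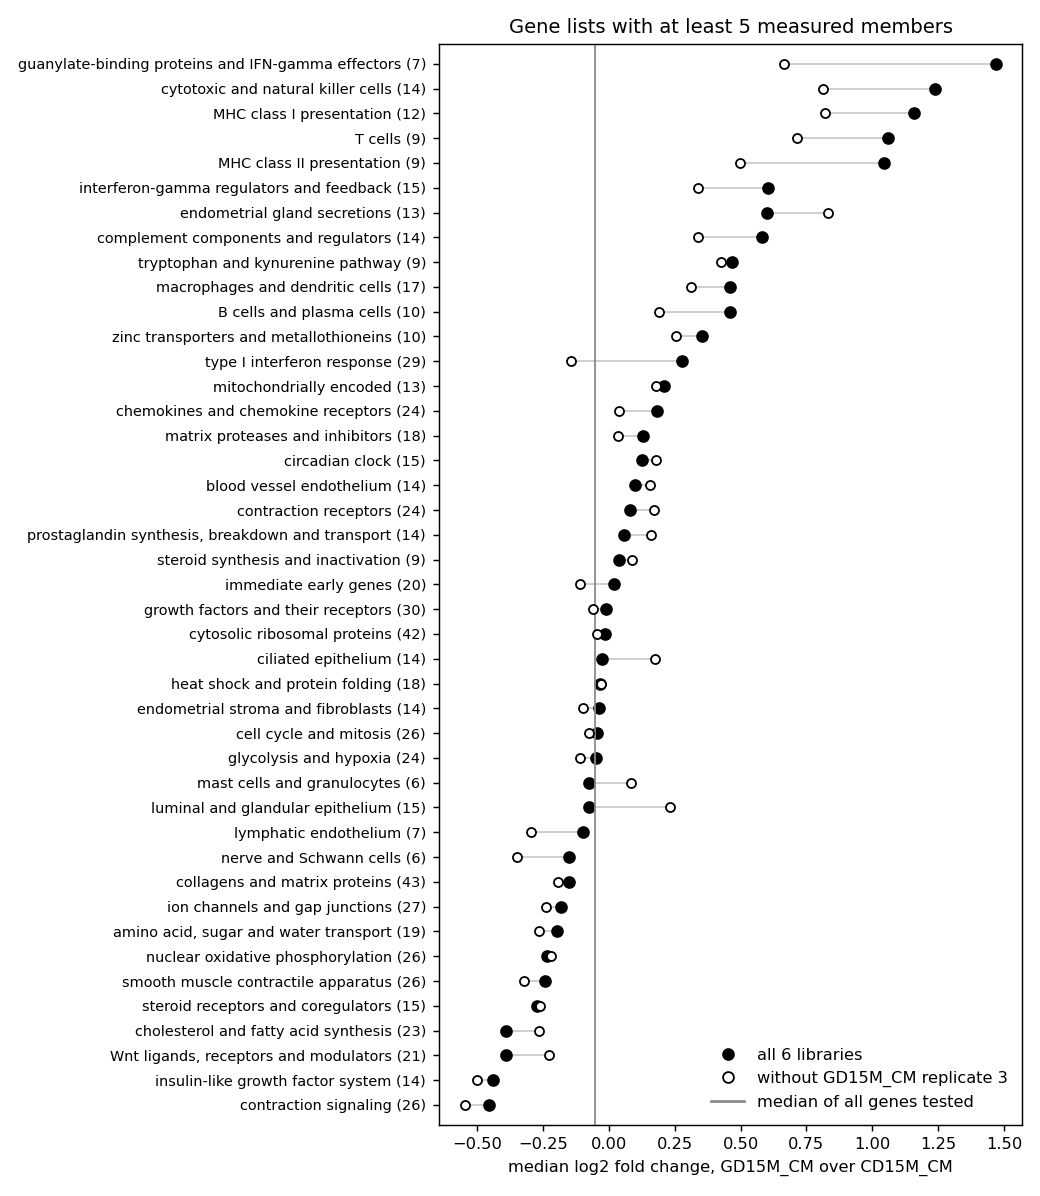
Median log2 fold change, GD15M_CM over CD15M_CM, of 43 gene lists with at least 5 measured members (x axis), with filled points for all 6 libraries and open points without GD15M_CM replicate 3, and a grey line at the median of all genes. The lists of interferon effectors, cytotoxic cells and MHC class I lie farthest right, at 1.47, 1.24 and 1.16, and contraction signaling and the IGF system farthest left, at -0.46 and -0.44.

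The longitudinal layer of the same gilts was used to see which of these values differ between layers. In LM alone 4 genes passed as higher (0.0292%) and 0 as lower, and without CD15M_LM replicate 3 the counts were 164 higher and 163 lower. Of the 4 genes, 3 were below 1 TPM in every cyclic LM library and passed the filter through the pregnant libraries alone, so their direction was fixed by it. Only the direct test of the difference, the limma interaction with the gilt as a block, was read as such. Of 15021 genes, 2 passed with a larger effect in CM (0.0133%), INMT and SMIM32, and 4 with a smaller one (0.0266%), DDA1, RPL23A, RPL36A and a gene without a symbol. For SMIM32 the effect in CM exceeded that in LM by 4.20 ± 0.39, or by 4.22 without the third cyclic gilt, but it was below 1 TPM in every cyclic library of both layers and was kept through pregnant libraries alone. Its difference is therefore a description and its test supports nothing. INMT, at 2.99, 3.58 and 8.80 TPM in GD15M_LM and 11.6, 2.81 and 9.85 TPM in CD15M_LM, differed by 3.65 ± 0.33 with an adjusted p of 0.0276 (limma), or by 3.48 without that gilt. INMT did not pass without the block, under median-ratio scaling or without the second pregnant gilt, with adjusted p values of 0.325, 0.0594 and 0.292 in the limma interaction. SMIM32 did not pass without the block or under median-ratio scaling, and without the second pregnant gilt it no longer reached the filter. In LM the groups of INMT overlapped, whereas in CM they were apart. RPL23A and RPL36A are ribosomal protein genes with many near-identical copies, so their values are uncertain. DDA1, a subunit of a ubiquitin ligase, was at 7.61, 9.90 and 12.1 TPM in GD15M_CM and 9.93, 9.90 and 11.04 TPM in CD15M_CM, and at 12.1, 13.7 and 15.5 TPM in GD15M_LM and 0.530, 0.894 and 0.347 TPM in CD15M_LM.

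The contractile list had a median of -0.24 in CM and of 0.82 in LM, but of 0.05 in LM without CD15M_LM replicate 3, the library with little MYH11. MHC class I genes had a median of 1.16 over 12 genes in CM, 0.71 over 10 in LM and 0.87 in LM without that library. T cell markers had a median of 1.06 over 9 markers in CM and 0.06 over 5 in LM, or 0.11 over 4 without it, so these are not medians of the same markers. Contraction signaling had a median of -0.46 in CM, 0.24 in LM and -0.18 without it. The all-gene median was -0.05 in CM, 0.13 in LM and -0.11 in LM without that library. These medians are set side by side, and their differences between layers were not tested.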

How the data were processed

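RNA was sequenced from the CM and LM of 9 gilts, giving 18 libraries. Per the labels and the study's methods, the authors used HISAT2 2.1.0 for alignment of paired reads (Sscrofa11.1) and HTSeq 0.9.1 for counting. The deposited values are TPM, made by the authors in a way not given in the sources used here, and their count test could not be applied to them. Each of the 6 libraries compared is from a separate gilt. The study compared CM and LM in a paired design, and CM and LM libraries of one state and number were taken here as one gilt. Deviations of these pairs from their group means correlated at 0.192 (replicate 1 of GD15M) to 0.532 (replicate 3 of GD15M). The layer tests with the gilt as a block rest on this matching. Gene symbols were found for 14692 of 24358 genes, and 5438 genes were at 0 in all 6 libraries compared. All deposited columns were mapped to a sample (0 unused).

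Groups followed the labels. Values were analyzed as log2(TPM + 1), so fold changes of low genes are understated, with limma 3.58.1 in R 4.3.3 (unpaired, empirical Bayes with a trend in the prior variance, two-sided, Benjamini-Hochberg over all genes kept). The pseudocount was 1. Fold changes stand with their SE. An exact permutation test of 3 libraries against 3 cannot give a p below 0.1 and was not used. Replicate numbers do not pair the states: deviations of same-numbered libraries correlated at 0.148, -0.0735 and 0.0303. The procedure was run on simulated data with planted changes and normal noise drawn independently for each library. No outlying library was simulated, so that run does not give the sensitivity reached in these libraries. Figures were drawn with matplotlib 3.10.9.

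Members and 46 gene lists were chosen with earlier results of these data known. Genes named were those that passed, a fixed set of interferon, lymphocyte, hormone and muscle genes, and the 10 of smallest p in each direction. Other genes, and members of lists, were named after their values were seen. Alternatives were other pseudocounts, filters, scalings and variance models, library weights, removal of mitochondrial genes, all 9 CM libraries, a replicate block, no minimum fold change and leaving out each library. Coordinates are RefSeq's on Sscrofa11.1, and promoter sequences were not used here. Some genes are not reported here.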

Additional observations from a re-analysis of the deposited data

Results flagged for a closer look

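INMT and SMIM32 stood out because the effect of pregnancy differed between the layers in the direct test. SMIM32 was below 1 TPM in every cyclic library of both layers and was kept through pregnant libraries alone, so its test supports nothing and its values are a description. The effect in CM minus that in LM was 4.20 ± 0.39 for SMIM32 and 3.65 ± 0.33 for INMT (log2 ± SE), each with an adjusted p of 0.0276 in the limma interaction, and each was higher in 3 of 3 pregnant than in all cyclic CM libraries. Neither passed without the gilt block, under median-ratio scaling or without the second pregnant gilt, where 0 genes passed with a larger effect in CM.

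OXTR, VSTM2A and C1QBP stood out because the groups did not overlap in either layer and lay in opposite directions, and for these the test of the difference did not pass. OXTR differed by less than 2-fold in both layers (log2 fold change -0.87 in CM and 0.83 in LM), and VSTM2A in LM (-0.58). OXTR was at 28.04, 25.3 and 29.7 TPM in GD15M_LM, against 16.3, 18.3 and 11.5 TPM in CD15M_LM, while in CM the pregnant libraries were below the cyclic ones. The difference was -1.71 ± 0.39 with an adjusted p of 0.393 (limma interaction), or -1.44 with an adjusted p of 0.189 without the third cyclic gilt. VSTM2A was at 0, 1.64 and 1.61 TPM in GD15M_LM, against 1.73, 2.0 and 1.78 TPM in CD15M_LM, and differed between layers by 2.61 ± 0.39 with an adjusted p of 0.102 (limma interaction), or 0.0686 without that gilt. C1QBP was at 7.91, 10.3 and 9.08 TPM in GD15M_LM, against 1.37, 1.83 and 4.71 TPM in CD15M_LM. Its effect differed by -3.19 ± 0.38 with an adjusted p of 0.0658 (limma interaction), and by -3.54 with an adjusted p of 0.0131 without that gilt, where it passed.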

How the results depend on the processing

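Main counts were 1 gene passing in CM (1 higher, 0 lower), 6 for the difference between layers (2 larger, 4 smaller in CM) and 4 in LM (4 higher, 0 lower). In CM, no filter and no variance trend each gave 0 genes, a mean TPM of at least 5 gave 9 (4 higher, 5 lower), median-ratio scaling 3 (3 higher), quantile normalization 6 (6 higher), library weights 113 (53 higher, 60 lower) and all 9 CM libraries 23 (11 higher, 12 lower). The replicate block, although the numbers do not pair the gilts, gave 4 (4 higher) in CM and 0 in LM. Leaving out each CM library gave 0 to 3 genes in all, 0 to 3 higher and 0 to 1 lower. Another pseudocount, removal of mitochondrial genes and no minimum fold change kept the counts. For the difference between layers, no replicate block gave 0 larger and 8 smaller, median-ratio scaling 0 of each, leaving out GD15M gilt 2 gave 0, and leaving out CD15M gilt 3 gave 47 (18 larger, 29 smaller). In LM, leaving out GD15M_LM replicate 2 gave 0 and leaving out CD15M_LM replicate 3 gave 327 (164 higher, 163 lower). ACTG2, at -0.30 with all libraries, reversed to 0.12 without GD15M_CM replicate 2, and leaving out each library gave -0.75 to 0.12. FAM167B did not pass without a filter (adjusted p 0.114 in limma), without the variance trend (0.0668) or without GD15M_CM replicate 1, 2 or 3 or CD15M_CM replicate 2 or 3 (0.0779 to 0.198). The all-gene median ranged from -0.15 to 0.02. The cause of these shifts was not tested. List counts without GD15M_CM replicate 3, and layer differences and LM list medians without the third cyclic gilt or its LM library, were chosen after seeing the data. With 3 gilts a group and unknown depth, low genes and small differences were not detectable. Large differences in well-expressed genes also failed to pass where the libraries of a group spread widely. In CM, GALNT9 had a log2 fold change of 3.84 with an adjusted p of 0.133, and PSMB9 of 2.71 with 0.248 (limma). The count of 1 gene therefore does not mean that other genes were unchanged.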
